A study of Mus musculus with 21 samples.

Results

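The aquaporins examined here were 5 mouse genes, Aqp1, Aqp3, Aqp8, Aqp9 and Aqp11, followed in 7 cell fractions sorted from bone marrow. They were taken from the 12 aquaporin genes that had a probe on the arrays, among 18217 genes with a probe and a symbol. The 5 were chosen on the large difference of Aqp1 between CFUe and GMP in these same arrays. That contrast is therefore described with no test for every member, as is Aqp1 wherever CFUe or GMP arrays enter a comparison. RNA of each fraction from C57BL/6 mice was hybridised in triplicate to 1-colour arrays, 21 in all, with no treatment and no genotype difference between fractions.

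KLS (lin- ckit+ sca1+) is the multipotent starting fraction. The labels place PreMegE, CFUe and Ter119 on the erythroid side, with CD150+ CD105- and FGCrI/II- cells for PreMegE, CD150- CD105- and FCGrI/II- cells for CFUe, and CD71+ Ter119+ cells for Ter119. On the myeloid side they list CD150- CD105- and FGCrI/II- cells for PreGM, CD150- and FCGrI/II+ cells for GMP, and Mac1+ Gr1+ cells for Mac1Gr1. PreMegE, CFUe, PreGM and GMP are also labelled lin-, ckit+ and sca1+, so that the printed antigens of CFUe and PreGM are the same. The erythroid regulator Klf1 separated them, with log2 levels of 3.91 ± 0.16 (SD, n = 3) in CFUe and -1.88 ± 0.41 (SD, n = 3) in PreGM. Age, sex and the number of mice behind each array are not given in the sources used here, so p-values measure the spread between arrays.

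Aquaporins are membrane channels that let water follow osmotic gradients, and a subgroup, the aquaglyceroporins, also passes glycerol and other small uncharged solutes. Aqp1 is the main water channel of the red cell membrane and is also found in endothelium and kidney tubule. Aqp9 is an aquaglyceroporin known from hepatocytes and neutrophils, and in mice it also carries glycerol into red cells. Aqp11 is an unorthodox member of intracellular membranes.

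Levels are log2 intensities relative to the 75th percentile of the array, so that 0 is the level of a fairly bright probe and a step of 1 is a doubling. They are read within a probe and not between probes. A difference was called when its limma adjusted p, over all 29532 tested probes, was under 0.05 and it was at least 2-fold. A probe is described as well above background by the scanner software's own flag, and the floor of an array is the lowest level among the probes that carry that flag.

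Aqp1, Aqp9 and Aqp11 rose together from KLS to PreMegE, and the stretches upstream of their starts are shown because these members moved together there. Each line gives the 250 bases before a transcript start (RefSeq, GRCm38.p6), 5′ to 3′ on the gene's strand. Capitals mark the GATA words, which are AGATAA or AGATAG or TGATAA or TGATAG, and the word CACCC, each on either strand. The windows are chr6:55336049-55336298 on the + strand for Aqp1, chr9:71163290-71163539 and chr9:71162634-71162883 on the - strand for the first and the second start of Aqp9, and chr7:97738248-97738497 on the - strand for Aqp11.
Aqp1: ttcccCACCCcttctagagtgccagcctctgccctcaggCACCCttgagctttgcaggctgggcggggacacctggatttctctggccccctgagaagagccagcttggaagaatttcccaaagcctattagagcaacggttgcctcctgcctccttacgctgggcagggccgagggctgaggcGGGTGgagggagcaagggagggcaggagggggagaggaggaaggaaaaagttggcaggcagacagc
Aqp9, first start: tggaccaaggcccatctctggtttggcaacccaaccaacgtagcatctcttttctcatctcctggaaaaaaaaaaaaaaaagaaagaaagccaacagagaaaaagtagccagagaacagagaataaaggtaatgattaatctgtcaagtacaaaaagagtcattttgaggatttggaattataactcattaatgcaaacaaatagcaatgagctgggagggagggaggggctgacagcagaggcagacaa
Aqp9, second start: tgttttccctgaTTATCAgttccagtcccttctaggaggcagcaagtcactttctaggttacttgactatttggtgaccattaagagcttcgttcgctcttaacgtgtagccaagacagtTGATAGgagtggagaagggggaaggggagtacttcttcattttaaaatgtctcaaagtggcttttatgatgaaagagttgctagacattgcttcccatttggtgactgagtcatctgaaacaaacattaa
Aqp11: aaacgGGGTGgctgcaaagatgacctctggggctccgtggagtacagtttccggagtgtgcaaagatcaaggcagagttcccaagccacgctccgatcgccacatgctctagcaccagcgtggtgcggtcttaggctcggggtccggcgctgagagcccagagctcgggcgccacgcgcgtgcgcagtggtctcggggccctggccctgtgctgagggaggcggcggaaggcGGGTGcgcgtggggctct

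The Aqp1 window held 3 CACCC words and 0 GATA words. The Aqp11 window held 2 CACCC words and 0 GATA words. The first Aqp9 window held neither word, and the second held 2 GATA words, 238 and 130 bases before the start. Among 32851 windows of 250 bases in the same table, 26.5% held a GATA word and 52.0% held CACCC. The Aqp1 and Aqp11 windows were rich in G and C, at 62% and 67.2%, the Aqp9 windows poor at 40.4% and 41.6%, and the median window had 52.4%. These matches are letters in a window and do not show binding. Windows for Aqp3 and Aqp8 were also present, with 4 and 1 CACCC words and 0 GATA words, and are not printed because neither gene was called from KLS to PreMegE.

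Several facts of the whole series bear on these genes. The Ter119 arrays were dimmer, with 75th percentiles of 7.61 to 8.19 on the log2 intensity scale against 8.43 to 9.98 on the other arrays, and their floors lay at -4.80 to -3.91 against -5.92 to -4.53. Ter119 carried granulocytic transcripts at the level of Mac1Gr1: the mean log2 level of 10 measured granulocytic markers was 6.79 to 6.88 over the Ter119 arrays, 6.78 to 7.09 over Mac1Gr1 and -2.84 to -0.56 over CFUe. Macrophage markers were high in KLS, with a mean of 0.91 to 2.41 over 9 genes, and at most -3.64 on any PreMegE array and -3.89 on any PreGM array. Xist and Y-linked transcripts also split the arrays, with Y-linked signal in all KLS, PreMegE and Ter119 arrays and Xist in all GMP and Mac1Gr1 arrays, while CFUe and PreGM each had both kinds. Fewer cells of a type and less RNA per cell cannot be told apart in such samples.

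Aqp1 was high throughout the erythroid fractions. Its level on the KLS arrays was 1.15, 1.25 and 2.52. On the PreMegE arrays it was 6.56, 6.45 and 6.41. On the CFUe arrays it was 7.48, 7.70 and 7.96. All PreMegE and CFUe arrays lay above all KLS arrays, and the third KLS array stood apart from the others of its fraction. On the Ter119 arrays the level was 6.25, 6.56 and 7.05, which overlaps PreMegE.

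In the myeloid fractions Aqp1 was lower than in the erythroid ones. The PreGM arrays gave 1.97, 2.03 and 2.49 for Aqp1, above the first and second KLS arrays and below the third. The GMP arrays gave -3.54, -3.62 and -3.22. The Mac1Gr1 arrays gave -0.58, -0.10 and -0.12, all above the GMP arrays and below every KLS array. The single Aqp1 probe was well above background on all 21 arrays, so that the GMP level, though the lowest, was a measured one. The GMP arrays nevertheless lay only 1.66 to 2.16 above their own floors.

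In order, the fraction means of Aqp1 were 7.72 in CFUe, 6.62 in Ter119, 6.47 in PreMegE, 2.16 in PreGM, 1.64 in KLS, -0.27 in Mac1Gr1 and -3.46 in GMP. Ter119 overlapped PreMegE and PreGM overlapped KLS, and all other neighbours in this order were separated by their arrays. The distance from CFUe to GMP was 11.18 on the log2 scale, or 2313-fold, and is the value by which the family was selected.

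**Figure D1:**
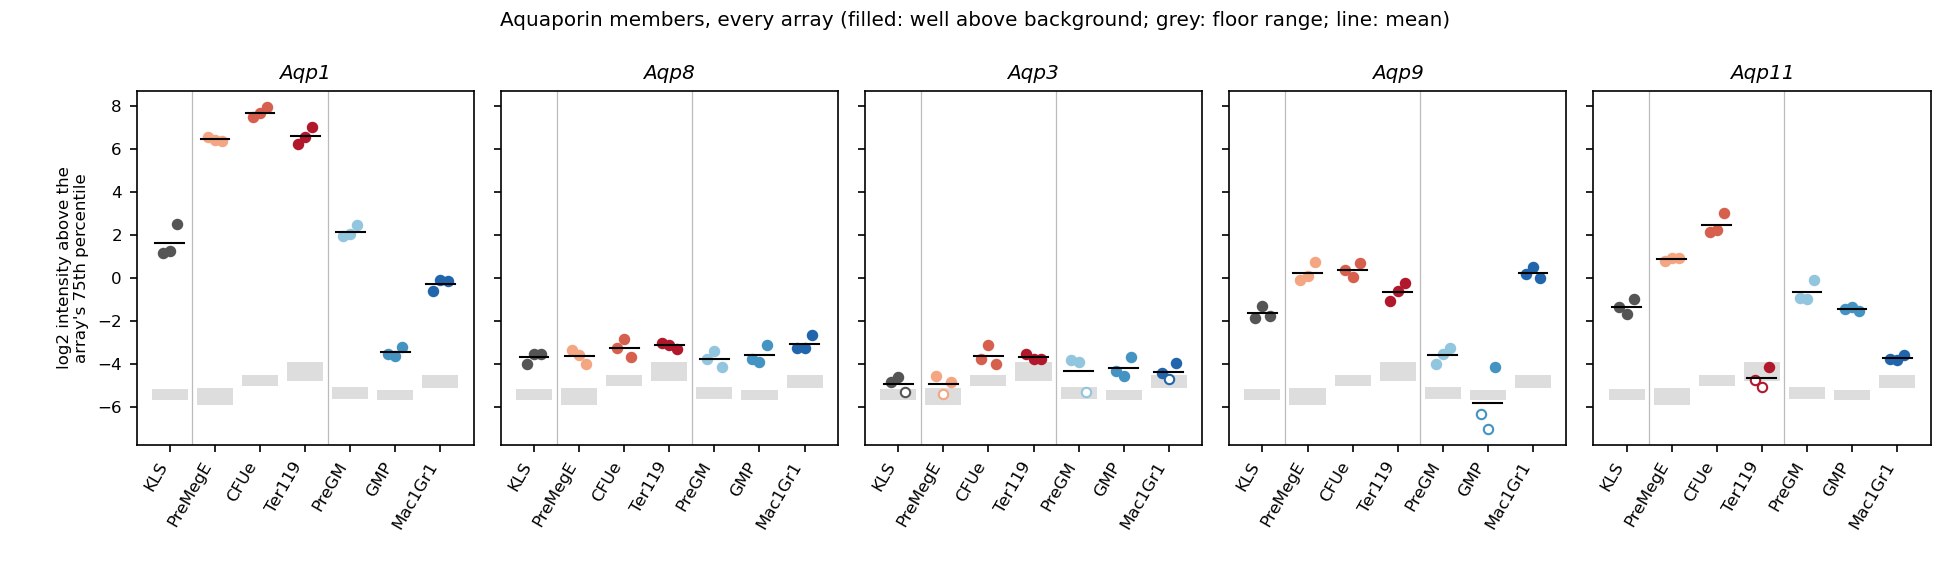
Log2 level of each of the 5 aquaporins (vertical axis, relative to the 75th percentile of the array) on all 21 arrays by fraction (horizontal axis). Points are arrays, lines are means, open points are not well above background and grey bands span the floors. Aqp1 lies at 6.25 or above on all PreMegE, CFUe and Ter119 arrays and at -3.22 or below in GMP, and levels of different probes are not comparable.

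Aqp1 was called in 3 of the 4 comparisons in which it was tested. From KLS to PreMegE it rose by 4.83 ± 0.30 (SE, n = 3 arrays per fraction, limma adjusted p 2.38e-09), a 28.5-fold difference. PreMegE exceeded PreGM by 4.31 ± 0.30 (SE, limma adjusted p 1.13e-08), and the differences on the 2 slides that held both fractions were 4.48 and 3.92. Ter119 exceeded Mac1Gr1 by 6.89 ± 0.30 (SE, limma adjusted p 6.2e-12), or 118-fold. From KLS to PreGM the difference was 0.52 ± 0.30 (SE, limma adjusted p 0.217) and was not called. Without the third KLS array it was 0.963 (limma adjusted p 0.00662), not called only because it was under 2-fold.

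The untested steps of Aqp1 are given as values. CFUe lay 1.24 above PreMegE, Ter119 lay below CFUe (log2 difference -1.096, and -0.43 on the slide that held both), and neither pair of fractions overlapped. GMP lay below PreGM (log2 difference -5.62, and -5.51 on the slide that held both), and Mac1Gr1 lay 3.19 above GMP. These sizes moved with the scaling: spike-in scaling gave 0.73 from PreMegE to CFUe, -2.47 from CFUe to Ter119, -4.61 from PreGM to GMP and 1.16 from GMP to Mac1Gr1. Quantile scaling gave 0.73 and -0.51 for the first 2 of these steps. Another background correction gave -4.72 from PreGM to GMP and 2.49 from GMP to Mac1Gr1. Among erythroid markers in Mac1Gr1, the globin gene Hba-a1 was at 3.02 ± 0.26 (SD, n = 3) against -1.58 ± 0.18 (SD, n = 3) in GMP. The mean level of all 8 measured erythroid markers was -2.11 to -1.67 in Mac1Gr1 and -3.96 to -2.96 in GMP. The part of red cell transcripts in the Mac1Gr1 level of Aqp1 was not tested.

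Because Aqp1 is also an endothelial gene, 8 endothelial markers were read beside it. Their mean level was -0.60 to -0.49 in KLS, -2.31 to -1.49 in PreMegE and -3.83 to -3.47 in CFUe. It was -3.36 to -3.10 in Ter119, -1.42 to -1.31 in PreGM, -2.99 to -2.55 in GMP and -3.94 to -3.62 in Mac1Gr1. Of the 8, 7 were well above background on all arrays of KLS and of PreGM, 6 in PreMegE, 5 in Ter119, GMP and Mac1Gr1, and 2 in CFUe. The endothelial cadherin Cdh5 was well above background on all Ter119 arrays and on no array of the other fractions. Emcn and Tie1 went the other way, well above background on no Ter119 array and on all KLS and PreGM arrays. The part of endothelial transcripts in the Aqp1 levels was not tested.

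The genes whose 7 fraction means followed Aqp1 most closely, among 14284 compared, were Samd14, Epor, Tnfrsf25, Ermap and Mtss1. Pearson's r was 0.983 for Samd14 and 0.982 for Epor, the erythropoietin receptor, with Spearman's rho of 0.893 and 0.964. Tnfrsf25, Ermap, an erythroid membrane protein, and Mtss1 had r of 0.975, 0.973 and 0.971. These are descriptions over 7 means that share the same arrays and scaling. The other members were less alike to Aqp1, with r of 0.72 for Aqp9, 0.35 for Aqp11, 0.27 for Aqp3 and 0.21 for Aqp8.

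Aqp8, a water channel reported in mitochondrial and plasma membranes that also passes hydrogen peroxide, was low and nearly flat. Its 21 levels ran from -4.15 to -2.65, and its single probe was well above background on every array. The fraction means ran from -3.77 in PreGM to -3.05 in Mac1Gr1, and every neighbour in their order overlapped. It was called in 0 of 8 tested comparisons by limma, and 0 had an unadjusted p under 0.05. The difference nearest the threshold was that of Mac1Gr1 over GMP, 0.53 ± 0.27 (SE, limma adjusted p 0.0838). With spike-in scaling it was called in GMP against PreGM (1.20), Ter119 against CFUe (-1.26) and Mac1Gr1 against GMP (-1.50). Between CFUe and GMP the difference was 0.33.

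Aqp3, an aquaglyceroporin of epithelia, was close to the floor in every fraction. Its single probe was well above background on all arrays of CFUe, Ter119 and GMP and on 2 of 3 arrays of the other fractions. The CFUe arrays gave -3.75, -3.12 and -4.01 and the PreMegE arrays -4.58, -5.40 and -4.84, with no overlap. Aqp3 was called there, at 1.32 ± 0.37 (SE, limma adjusted p 0.00673), and on the shared slide the difference was 1.46. The call was lost with spike-in scaling (0.80, adjusted p 0.182), with the other background correction (0.62, under 2-fold) and with the sex-chromosome split as a block (0.63, adjusted p 0.166). In the other 7 tested comparisons Aqp3 was not called. It became a call with spike-in scaling in Ter119 against CFUe (-1.44), GMP against PreGM (1.18) and Mac1Gr1 against GMP (-2.20). It also became one with the sex-chromosome block in Ter119 against Mac1Gr1 (1.70). The effect of that block was estimated from CFUe and PreGM alone, the fractions with both kinds of array. Without the third PreGM array Aqp3 became a call in PreGM against KLS (1.07) and PreMegE against PreGM (-1.08). Between CFUe and GMP it differed by 0.56 with overlapping arrays.

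The Aqp9 levels of KLS and the 3 myeloid fractions lay apart from each other. Its brightest probe gave -1.84, -1.29 and -1.78 on the KLS arrays, -3.99, -3.54 and -3.26 on the PreGM arrays and -6.31, -7.01 and -4.16 on the GMP arrays. The Mac1Gr1 arrays gave 0.18, 0.49 and -0.02. The arrays of these fractions did not overlap, and the level was lower at each progenitor step and highest of these in Mac1Gr1. In GMP the probe was well above background on the third array alone, so the GMP mean of -5.83 ± 1.48 (SD, n = 3) is poorly measured.

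On the erythroid side the PreMegE arrays gave -0.09, 0.08 and 0.74 for Aqp9. The CFUe arrays gave 0.38, 0.05 and 0.69, and the Ter119 arrays -1.06, -0.60 and -0.23. PreMegE and CFUe overlapped each other and Mac1Gr1, and all 3 lay above Ter119. The order of fraction means was CFUe 0.37, PreMegE 0.24, Mac1Gr1 0.22, Ter119 -0.63, KLS -1.64, PreGM -3.60 and GMP -5.83, and below Mac1Gr1 no neighbours overlapped.

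Aqp9 was called in 5 of 8 tested comparisons. It rose from KLS to PreMegE by 1.88 ± 0.50 (SE, limma adjusted p 0.00902) and fell from KLS to PreGM by 1.96 ± 0.50 (SE, limma adjusted p 0.00818). PreMegE thus exceeded PreGM by 3.84 ± 0.50 (SE, limma adjusted p 1.6e-05), with 4.07 and 4.01 within the shared slides. The calls of PreMegE and of PreGM against KLS were lost with slide as a block (adjusted p 0.116 and 0.0659). That of PreMegE was also lost with spike-in scaling (1.42, adjusted p 0.0522), and that of PreGM with the sex-chromosome block (-1.63, adjusted p 0.0714).

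GMP lay below PreGM in Aqp9 (log2 difference -2.23 ± 0.50, SE, limma adjusted p 0.00291), and -2.32 on the slide that held both. The fit of these 2 fractions alone gave adjusted p 0.0801 and no call, and with the other background correction the difference was -0.80, under 2-fold. From GMP to Mac1Gr1 Aqp9 rose by 6.05 ± 0.50 (SE, limma adjusted p 6.06e-09). The size is uncertain because the GMP mean lies near the floor. It was 3.47 with the other background correction, 4.02 with spike-in scaling and 6.88 without the third GMP array. The mean levels of several marker lists also stood higher in Mac1Gr1 than in GMP. The mean over 10 granulocytic markers was at or above 6.78 in Mac1Gr1 and at or below 2.41 in GMP. For 9 macrophage markers these bounds were 0.15 and -2.34, for 6 B cell markers 0.31 and -2.80, and for 5 T cell markers -1.21 and -2.82. Single markers did not all rise, where 56.7% of all probes were called. Of the granulocytic markers 7 were called higher and 3 lower, and of the macrophage markers 8 and 1. All 6 B cell markers and 2 of 5 T cell markers were called higher. Of 5 eosinophil markers 1 was called higher and 2 lower. The part of each cell type in the Aqp9 rise was not tested.

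Between the most mature fractions Aqp9 was not called: Ter119 minus Mac1Gr1 was -0.85 ± 0.50 (SE, limma adjusted p 0.142), and it became a call with spike-in scaling (-1.57). Ter119 held granulocytic transcripts as given above, and their part in its Aqp9 level was not tested. From CFUe to Ter119 the difference was -1.003 ± 0.50 (SE, limma adjusted p 0.0762), and it became a call under 5 of the alternatives. Between CFUe and GMP, the contrast of the choice, Aqp9 differed by 6.20.

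The other 2 Aqp9 probes shared some of these results and not others. The second probe by brightness rose from KLS to PreMegE by 2.24 and from GMP to Mac1Gr1 by 6.36, and the third by 2.08 and 5.74, all called. From KLS to PreGM the second probe was not called (-1.01 ± 0.62, SE, limma adjusted p 0.266) and the third was (-1.41 ± 0.44, SE, limma adjusted p 0.0261). The step from CFUe to Ter119 changed sign, at -1.003 for the brightest probe, 0.43 for the second and 0.29 for the third, none of them called. On the second probe the Mac1Gr1 arrays, at -0.04 or above, lay above all PreMegE and CFUe arrays, at -0.45 or below, and the third GMP array, at -3.89, fell within the range of PreGM. In GMP all 3 probes were well above background on the third array alone.

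**Figure D2:**
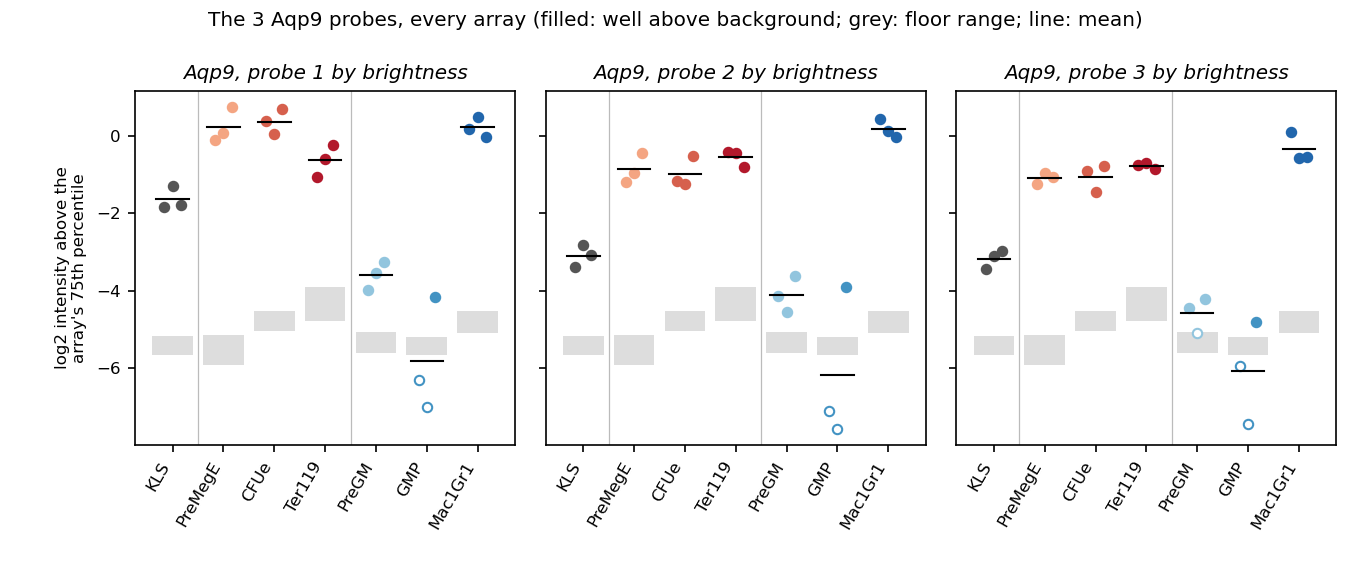
Log2 level of the 3 Aqp9 probes (vertical axis, relative to the 75th percentile of the array) on all arrays by fraction (horizontal axis). Points are arrays, lines are means, open points are not well above background and grey bands span the floors. All 3 probes are lowest in GMP, where 1 of 3 arrays is well above background, and high in Mac1Gr1.

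Flt3l, Irgm1, Cyp2c55 and Ppp6r2 were among the genes most like Aqp9 over the 7 fraction means, with r from 0.973 to 0.978. Those most like Aqp8 were Olfr346, Olfr1413, Mgll, Fstl4 and Xkr8 (r from 0.983 to 0.993), and those most like Aqp3 were Mthfd2, Asb6, Hes7, Fgf18 and Gpr50 (r from 0.934 to 0.974). The fraction means of Aqp8 spanned only 0.72 and those of Aqp3 1.32, with every neighbour overlapping. The means of the genes listed beside them spanned from 0.65 (Fgf18) to 8.07 (Mgll). These likenesses rest on small differences of dim probes and do not show shared regulation.

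Aqp11 peaked in CFUe and was near the floor in Ter119. The KLS arrays gave -1.37, -1.66 and -0.99 and the PreMegE arrays 0.78, 0.94 and 0.92. The CFUe arrays gave 2.14, 2.23 and 3.02, above every other array. On the Ter119 arrays the level was -4.77, -5.07 and -4.13, and the third array alone was well above background. The levels thus climbed over both erythroid progenitor steps and were lowest in Ter119.

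On the myeloid side Aqp11 moved less before the last step. The PreGM arrays gave -0.91, -0.98 and -0.11, and the GMP arrays -1.45, -1.35 and -1.52. The Mac1Gr1 arrays gave -3.75, -3.80 and -3.57, all well above background. The order of means was CFUe 2.46, PreMegE 0.88, PreGM -0.67, KLS -1.34, GMP -1.44, Mac1Gr1 -3.71 and Ter119 -4.66. KLS and GMP overlapped, and the other neighbours did not.

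Aqp11 was called in 5 of 8 tested comparisons. It rose from KLS to PreMegE by 2.22 ± 0.27 (SE, limma adjusted p 7.6e-06) and from PreMegE to CFUe by 1.58 ± 0.27 (SE, limma adjusted p 0.000112), with 1.45 on the slide that held both. From CFUe to Ter119 it fell by 7.12 ± 0.27 (SE, limma adjusted p 3.54e-13), and the shared slide gave -6.27. The Ter119 levels minus the floor of their own array ran from -0.86 to 0.67, so the size of this fall is uncertain, and with the other background correction it was -4.36. From GMP to Mac1Gr1 it fell by 2.27 ± 0.27 (SE, limma adjusted p 7.75e-07). With the other background correction that difference was -0.985, just under 2-fold.

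Between the branches, PreMegE exceeded PreGM in Aqp11 by 1.55 ± 0.27 (SE, limma adjusted p 0.000343), with 1.85 and 1.03 within slides. With the sex-chromosome block the difference was 0.99 and just under 2-fold. Neither PreGM against KLS (0.67 ± 0.27, SE, limma adjusted p 0.0821) nor GMP against PreGM (-0.77 ± 0.27, SE, limma adjusted p 0.0445) was called, the second for its size. With the sex-chromosome block the first was called (1.23, limma adjusted p 0.00181), and with spike-in scaling the direction of the second turned to 0.24. Ter119 minus Mac1Gr1 was -0.95 ± 0.27 (SE, limma adjusted p 0.00538), also under 2-fold. It passed 2-fold and was called with quantile scaling (-1.42), spike-in scaling (-1.68) and the sex-chromosome block (-1.79), and turned to 0.19 with the other background correction. Between CFUe and GMP, Aqp11 differed by 3.90.

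The genes most like Aqp11 were Fance, Amz2, Spg7, Chtf8 and Wdr73, with r from 0.991 to 0.998 over the 7 means. Their means spanned only 1.43 (Spg7) to 2.68 (Wdr73), against 7.12 for Aqp11, whose lowest mean lay near the floor. These likenesses do not show shared regulation. Fance is a subunit of the Fanconi anaemia core complex and Spg7 a mitochondrial protease.

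**Figure D3:**
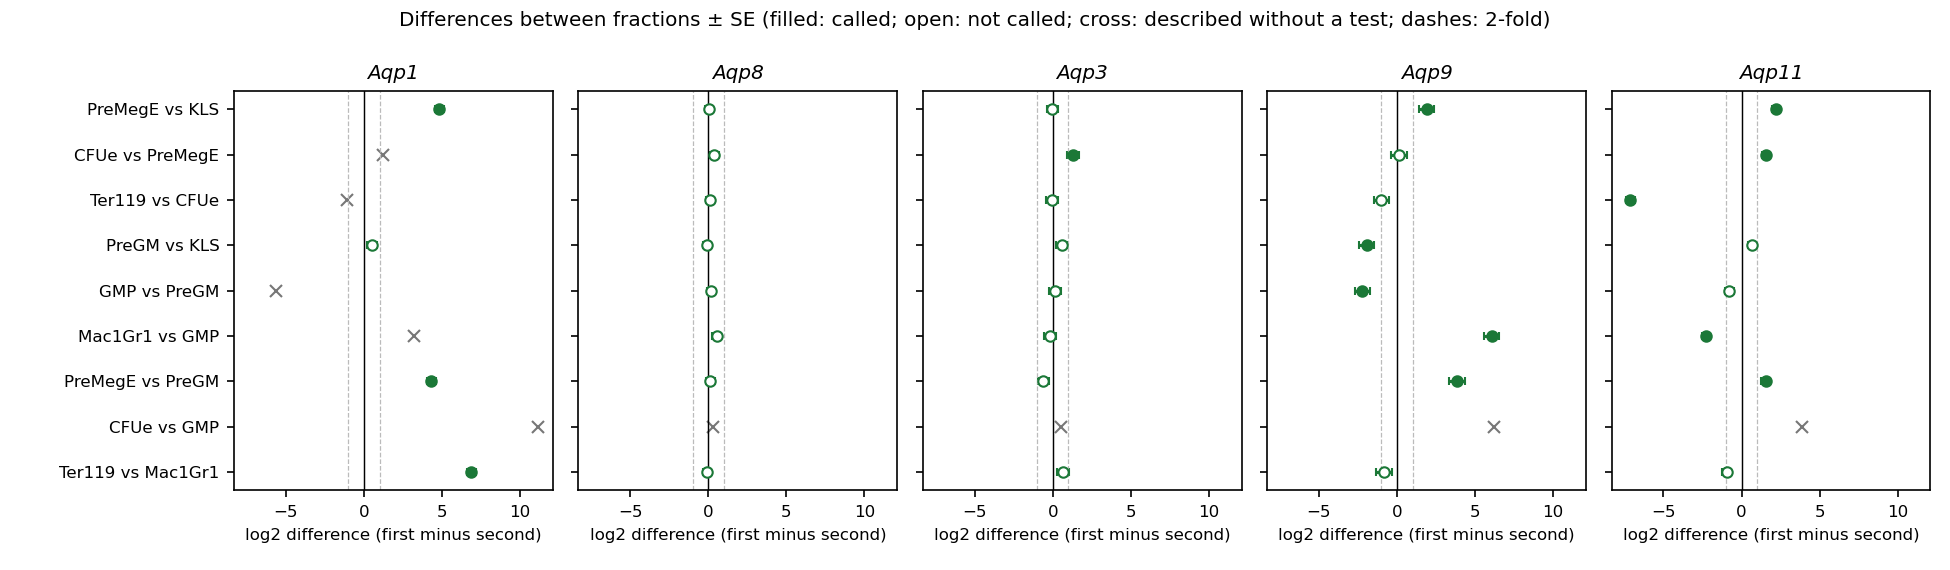
Log2 difference of each member (horizontal axis, first minus second fraction) in the 9 comparisons (vertical axis), with bars of 1 SE from limma. Filled points were called, open points were not, and crosses are descriptions with no test. Aqp1 and Aqp9 are called from KLS to PreMegE and between PreMegE and PreGM, with values from 1.88 to 4.83, and Aqp11 has its largest fall, 7.12, from CFUe to Ter119.

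The members' counts are read against the share of all probes called in the same comparison. From KLS to PreMegE, 3 of 5 members were called, all higher, where 12.4% of all tested probes were called. Of the 3 other aquaporins tested there, 0 were called. With spike-in scaling, and with slide as a block, 2 of the 5 members were called there. From KLS to PreGM 1 of 5 was called, Aqp9, lower, against 8.64%. PreMegE exceeded PreGM in 3 of 5, Aqp1, Aqp9 and Aqp11, against 12% of all probes.

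The other comparisons had backgrounds from 10.4% to 57.2%. From PreMegE to CFUe 2 of 4 tested members, Aqp3 and Aqp11, were called, both higher, against 24.7%. From PreGM to GMP 1 of 4, Aqp9, was called against 10.4%. From CFUe to Ter119 1 of 4, Aqp11, was called against 57.2%, from GMP to Mac1Gr1 2 of 4 against 56.7%, and between Ter119 and Mac1Gr1 1 of 5 against 41.9%. Between CFUe and GMP 26.3% of all probes were called, a figure given for scale only because the members were chosen by that contrast. Comparisons that share a fraction share its arrays.

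The 7 other aquaporin genes with a probe were mostly near or below background, and Aqp2 was the exception. Aqp2, the vasopressin-regulated water channel of the kidney collecting duct, gave 5.84, 5.65 and 5.67 on the Ter119 arrays. The CFUe arrays gave -1.31, -0.84 and -1.27, and the Mac1Gr1 arrays -0.09, 0.09 and 0.08. Its 1 probe was well above background on all 21 arrays, and no array outside Ter119 was above 0.09.

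Aqp2 rose from CFUe to Ter119 by 6.86 ± 0.27 (SE, limma adjusted p 5.93e-13), or 116-fold, and Ter119 exceeded Mac1Gr1 by 5.69 ± 0.27 (SE, limma adjusted p 2.52e-11). Mac1Gr1 lay 2.20 above GMP, which was also called. In the comparisons among KLS, PreMegE, PreGM and GMP and between CFUe and PreMegE, Aqp2 was not called, with differences from -0.32 to 0.70. Aqp2 was read from 1 probe, and its differences were not recomputed under the alternatives. The mean of 6 B cell markers was 2.36 to 2.88 in Ter119, above every Mac1Gr1 array, and -4.36 to -3.31 in CFUe. The mean of 8 erythroid markers was 5.99 to 6.38 in Ter119 and 1.66 to 1.83 in CFUe. The mean of 5 T cell markers was 0.31 to 0.39 in Ter119 and -4.24 to -3.63 in CFUe. Means of granulocytic, macrophage, eosinophil, endothelial and stem markers also stood higher in Ter119 than in CFUe, and that of megakaryocyte markers lower. The part of each cell type in the Ter119 level of Aqp2 was not tested.

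**Figure D4:**
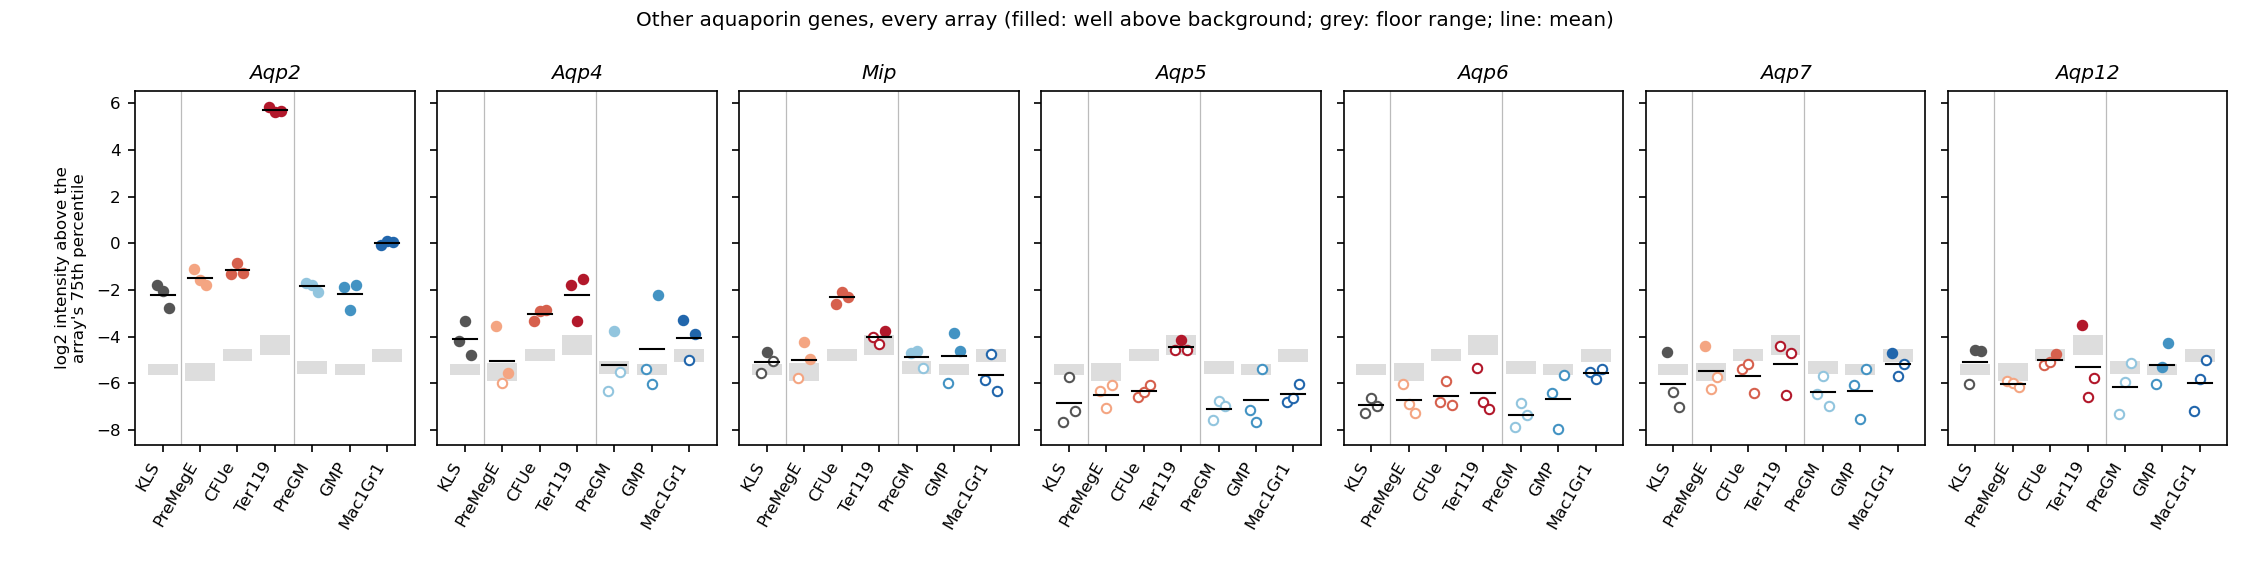
Log2 level of the 7 other aquaporin genes (vertical axis, relative to the 75th percentile of the array) on all arrays by fraction (horizontal axis). Points are arrays, lines are means, open points are not well above background and grey bands span the floors. Aqp2 lies at 5.65 or above on the Ter119 arrays and at 0.09 or below on all others.

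Mip, the lens aquaporin, was measured on all arrays in CFUe alone, at -2.59, -2.07 and -2.29, above every array of the other fractions. It passed the filter on dim probes through CFUe alone, so no test of that difference is given. Aqp4, the astrocyte water channel, was called in 0 of the 8 tested comparisons by limma, with an unadjusted p under 0.05 in 1, and its highest mean was -2.22 in Ter119. Aqp5, Aqp6, Aqp7 and Aqp12 were not well above background on all arrays of any fraction and were not tested, and Aqp6 was not well above background on any array. Of the 3 tested genes of this group, 0 were called by limma between PreMegE and PreGM, and 0 had an unadjusted p under 0.05.

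Other genes that bear on water, gas and glycerol transport were read from lists. Of 7 red cell membrane transporters, 6 were called higher and 1 lower in Ter119 than in Mac1Gr1, where 41.9% of all probes were called, with a median difference of 5.92 beside 0.06 over all probes. Those with the largest differences were the anion exchanger Slc4a1 (9.47 ± 0.22, SE, limma adjusted p 3.47e-15), the Rhesus proteins Rhd (8.34 ± 0.30, SE, limma adjusted p 6.26e-13) and Rhag (7.34 ± 0.72, SE, limma adjusted p 1.43e-07), and the lactate carrier Slc16a1 (5.92 ± 0.16, SE, limma adjusted p 1.72e-14). Between PreMegE and PreGM, where 12% of all probes were called, 3 were called higher and 1 lower, with Rhd at 3.81 and Rhag at 3.01, while Slc4a1, at 0.79, and Slc16a1, at 0.11, were not called. Aqp1 was thus already 4.31 higher in PreMegE than in PreGM, at a step where the Slc4a1 difference was under 2-fold.

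Of 10 genes of glycerol handling, 1 was called higher and 5 lower in Ter119 than in Mac1Gr1, beside 41.9% of all probes, with a median difference of -1.102 beside 0.06. The triglyceride synthases Dgat1 and Dgat2 were lower in Ter119 (log2 differences of -2.69 and -2.10), as was glycerol kinase, Gk (-2.07). Gpam, which starts glycerolipid synthesis, was higher in Ter119, by at least 2.05-fold (limma adjusted p 1.72e-07), since no Mac1Gr1 array measured it well above background. Between PreMegE and PreGM 1 of these was called higher and 1 lower, beside 12% of all probes.

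Of 18 genes of cell volume regulation, 0 were called by limma between PreMegE and PreGM, beside 12% of all probes. Of the 18, 10 had an unadjusted limma p under 0.05. Small p-values were common there, as 8123 of all 29532 tested probes were called when no minimum fold was set. In Ter119 against Mac1Gr1, 6 of the 18 were called higher and 3 lower, a share near the 41.9% of all probes. The calcium-activated potassium channel Kcnn4 (4.57 ± 0.23, SE, limma adjusted p 3.82e-11), the chloride transporter Clcn3 (3.66) and the cation channel Trpv4 (3.06) were higher in Ter119, and the kinase Stk39 was lower (log2 difference -2.26).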

How the data were processed

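Total RNA from the sorted fractions was Cy3-labelled and hybridised to Agilent whole mouse arrays, and the authors deposited per-array scanner output of Agilent Feature Extraction (10.7.1.1, per the labels) with processed and mean intensity, background and flags per spot, and a table of normalized log2 values. How the authors made the deposited log2 values was not given in the sources used here beyond normalization, and this table served as an alternative. For the main values, control spots and flagged outlier spots (80 to 283 per array) were left out, log2 processed intensity minus the 75th percentile of the array was taken, and spots of a probe were averaged, giving 41174 probes. Of these, 26690 were named through RefSeq accessions (GRCm38.p6 tables, used for names). The brightest probe stood for a gene. The 29532 tested probes carried the flag for well above background on each of the 3 arrays in 1 fraction or more. One limma fit (3.58.1, R 4.3.3) of the 7 fraction means gave two-sided moderated tests with Benjamini-Hochberg adjustment over all tested probes within each comparison, across all genes, with 14 residual degrees of freedom and a median residual SD of 0.26. The number of arrays limits the precision.

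The 5 members and all lists were chosen with earlier results of these data known. Genes named beyond the members were all other aquaporins with a probe, up to 4 genes per list called in PreMegE vs PreGM or Ter119 vs Mac1Gr1 with the largest differences, and the 5 genes with the highest Pearson correlation to a member. Alternatives were quantile and spike-in scaling, the deposited table, normexp background correction with an offset of 50, no filter on dim probes, no minimum fold, the slide, the replicate number and the split by Xist and Y-linked signal as blocks, the compared fractions alone, the second-brightest probe, and leaving out each array. The fit was tested on simulated data. Kit, Ly6g, Cebpe, Cd68 and Hbb-b1 had no named probe. Some genes that these rules named are not reported here.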

Additional observations from a re-analysis of the deposited data

Results flagged for a closer look

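Aqp9 moved in opposite directions from KLS: it was higher in PreMegE (1.88 on the log2 scale) and lower in PreGM (-1.96) on all arrays. At the last step it was lower in Ter119 than in CFUe (-1.003) and higher in Mac1Gr1 than in GMP (6.05). The first of these 2 was not called, and the other Aqp9 probes gave it the opposite sign. Aqp11 was higher in CFUe than in PreMegE (1.58) and lower in GMP than in PreGM (-0.77), the latter under 2-fold. In each pair every array of one fraction lay above, and every array of the other below, its own comparison fraction, and the difference between the 2 effects was not tested.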

How the results depend on the processing

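Of 729 member differences recomputed under an alternative, 624 counted as the same. Those tested kept their direction and their side of the threshold, and those with no test moved by less than the spread between arrays. Of the rest, 55 changed sign, 21 became calls, 12 lost a call and 17, with no test, moved by more than that spread. With no filter, no minimum fold, the replicate block or the compared fractions alone, the size of a difference could not change by design. None of the called member differences changed sign. The sign changes fell on differences that were not called or were given as a description, most of them of Aqp8 and Aqp3, and the cause was not tested.

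With quantile scaling the sign turned for Aqp3 in PreMegE against KLS (0.348) and for Aqp8 in Ter119 against CFUe (-0.622) and PreGM against KLS (0.139), and the deposited table gave 0.355, -0.690 and 0.143. Both called 2 members in Ter119 against CFUe and 2 in Ter119 against Mac1Gr1. With normexp background correction it turned for Aqp3 in PreMegE against KLS (0.151), Ter119 against CFUe (0.525), GMP against PreGM (-0.184) and Mac1Gr1 against GMP (0.674), for Aqp8 in PreGM against KLS (0.107), GMP against PreGM (-0.128) and Ter119 against Mac1Gr1 (0.199), and for Aqp11 in the last (0.188). Called members became 1 in CFUe against PreMegE, 0 in GMP against PreGM and 1 in Mac1Gr1 against GMP.

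Scaling on the spike-in probes moved the median difference of all probes to between -1.857 and 0.995, where it was -0.021 to 0.222 in the main fit and -0.236 to 0.189 with quantile scaling. Under it the sign turned for Aqp8 in PreMegE against KLS (-0.407), CFUe against PreMegE (-0.135), Ter119 against CFUe (-1.256), Mac1Gr1 against GMP (-1.497) and CFUe against GMP (-1.054). It also turned for Aqp3 in PreGM against KLS (-0.039), CFUe against GMP (-0.821) and Ter119 against Mac1Gr1 (-0.056), for Aqp9 in CFUe against PreMegE (-0.388), for Aqp1 in PreGM against KLS (-0.091) and for Aqp11 in GMP against PreGM (0.242). Called members became 2 in PreMegE against KLS, 1 in CFUe against PreMegE and 4 in Ter119 against CFUe. They became 3 in GMP against PreGM, 4 in Mac1Gr1 against GMP and 3 in Ter119 against Mac1Gr1.

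With slide as a block the sign turned for Aqp8 in PreMegE against KLS (-0.320), Aqp9 in CFUe against PreMegE (-0.045) and Aqp3 in Ter119 against CFUe (0.060). Members called with that block were 2 in PreMegE against KLS, 2 in Ter119 against CFUe and 0 in PreGM against KLS. With the Xist and Y-linked split as a block the sign turned for Aqp8 in CFUe against PreMegE (-0.013), GMP against PreGM (-0.011) and Ter119 against Mac1Gr1 (0.507). It also turned for Aqp3 in Ter119 against CFUe (0.623), PreGM against KLS (-0.108), GMP against PreGM (-0.179) and PreMegE against PreGM (0.091). Called members became 1 in CFUe against PreMegE and 3 in Ter119 against Mac1Gr1. The last fractions were split fully by this block, so its effect there was borrowed from the CFUe and PreGM arrays. The second-brightest Aqp9 probe gave -0.114 in CFUe against PreMegE and 0.425 in Ter119 against CFUe, and left 0 members called in PreGM against KLS. Fits of the compared fractions alone called 2 members in Ter119 against CFUe and 0 in GMP against PreGM, and with no minimum fold 2 were called in GMP against PreGM and 2 in Ter119 against Mac1Gr1.

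Same-numbered arrays did not deviate together, with correlations of -0.37 to 0.37, and in no comparison did all 6 arrays correlate best with their own number, so the numbers were not taken as pairs. The fit with the replicate block changed no member's call. Replicate numbers were balanced over the fractions, so this block could change the SE of a member's difference but not its size. The Aqp1 difference of PreMegE from KLS was thus 4.832 by design, with limma adjusted p 9.76e-10.

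Leaving out 1 array at a time gave 1 to 2 called members in PreGM against KLS (2 without PreGM replicate 3) and in Ter119 against Mac1Gr1 (2 without Ter119 replicate 3). In PreMegE against PreGM it gave 3 to 4 (4 without PreGM replicate 3, with Aqp3 at -1.083, limma adjusted p 0.0194). Aqp3 ran from -0.215 to 0.213 in PreMegE against KLS, from -0.253 to 0.194 in Ter119 against CFUe, from -0.328 to 0.433 in GMP against PreGM and from -0.371 to 0.089 in Mac1Gr1 against GMP. Aqp8 ran from -0.104 to 0.242 in PreMegE against KLS, from -0.090 to 0.338 in Ter119 against CFUe, from -0.269 to 0.111 in PreGM against KLS, from -0.056 to 0.380 in GMP against PreGM, from -0.055 to 0.324 in PreMegE against PreGM and from -0.193 to 0.112 in Ter119 against Mac1Gr1. Aqp9 ran from -0.037 to 0.380 in CFUe against PreMegE.

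Counts over all probes moved by more than 1.5 times in 3 settings. In the order CFUe against GMP, CFUe against PreMegE, GMP against PreGM, PreGM against KLS, PreMegE against KLS, PreMegE against PreGM and Ter119 against Mac1Gr1, the main fit called 7768, 7291, 3061, 2551, 3666, 3556 and 12388 probes. Without a minimum fold the counts were 15909, 15023, 7773, 7579, 7733, 8123 and 19530, and with normexp 4815, 4100, 1639, 1207, 2105, 1928 and 7170. Spike-in scaling gave 17717 in CFUe against GMP, 14527 in GMP against PreGM and 5604 in PreGM against KLS.

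The limits are those of 3 arrays per fraction and of dim signal. Aqp3 in every fraction, Aqp9 in GMP and Aqp11 in Ter119 lay near the floor, where background correction sets much of a difference. Aqp8 in every fraction and Aqp1 in GMP were only slightly brighter. Comparisons with Ter119 hold dimmer arrays, granulocytic and B cell transcripts, and, against Mac1Gr1, the full split by Xist and Y-linked signal.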
